A study of Mus musculus with 6 samples.

Results

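Transcripts of 10 genes of the NF-kB system were followed in mouse mammary carcinoma cells that had been kept with or without neutrophil extracellular traps (NETs). Such traps are meshes of chromatin studded with granule proteins, which neutrophils cast out when activated. The genes were taken by symbol from the deposited count table: the 5 DNA-binding subunits Rela, Relb, Rel, Nfkb1 and Nfkb2, and the 5 inhibitors and feedback genes Nfkbia, Nfkbib, Nfkbie, Nfkbiz and Tnfaip3. All 10 of these symbols were found among the 55809 in the table, and all 10 passed the filter on low counts. The cells were the 410.4 line, a single mouse breast cancer cell line, treated for 2 days and held in DMEM with 0.5% fetal calf serum. In the NETs group (3 libraries) the medium had been conditioned with NETs, and in the control group (3 libraries, Veh in the titles) it was DMEM (0.5%) without them. The cells carried no other labelled treatment or allele. The labels used here do not say where the neutrophils came from, and anything else that differed between the media cannot be told apart from the NETs.

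NF-kB proteins are transcription factors that bind DNA as pairs of subunits. In resting cells, inhibitors of the IkB family hold them in the cytoplasm. In the canonical pathway a signal from a cytokine or microbial receptor activates the IKK kinase complex, which marks the IkB proteins for destruction and frees pairs such as RELA with the processed product of Nfkb1. In the non-canonical pathway the kinase NIK, the product of Map3k14, drives the processing of the Nfkb2 product, which pairs with RELB. Several of the inhibitor genes are themselves NF-kB targets, so that the pathway switches itself off again, and Tnfaip3 encodes A20, a ubiquitin-editing enzyme that silences signalling upstream of the IKK complex.

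Sites for NF-kB close to the start of a gene are the sequence feature by which such feedback is usually recognised, and the stretches below are shown because they hold the matches found in these genes. RefSeq promoter sequences (build GRCm38.p6) were at hand for 7 members (Rela, Rel, Nfkb2, Nfkbia, Nfkbib, Nfkbie and Tnfaip3). Relb, Nfkb1 and Nfkbiz had no entry. The 250 bases before each start were searched on both strands for the 10-base NF-kB consensus, with overlapping matches allowed. At least 1 match was found in 5 of the 7 members (Rel, Nfkb2, Nfkbia, Nfkbie and Tnfaip3), where 8.2% of the 27025 genes in the table had a match in any of their windows. Counted by window, because some genes have several starts, 7 of the 10 windows of the members held a match, against 7.3% of all 32851 windows of the same length. These windows are not independent, because 3 of the 7 belong to Nfkb2 and 2 of those overlap. Several of the genes were already known as NF-kB targets, and the difference between the shares was not tested. Capitals mark the matched bases, and each sequence is read 5′ to 3′ on the strand of the gene.
Nfkbia: gactggcttGGAAATTCCCcgcgcctga
Nfkbie: cagcaaacaGGGGGATTCCggaggggcg
Tnfaip3, distal match: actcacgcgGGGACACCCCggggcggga
Tnfaip3, proximal match: atttccatcGGAAATCCCCct
Nfkb2, upstream start, distal match: gatcgtcacGGGAATTCCCCccctcgggg
Nfkb2, upstream start, proximal match: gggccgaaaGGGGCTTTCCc
Rel: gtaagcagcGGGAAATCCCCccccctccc
The Nfkbia stretch lies on the minus strand at chr12:55492658-55492685, with its match 29 to 20 bases before the start. The Nfkbie stretch is on the plus strand at chr17:45555585-45555612, with its match 106 to 97 bases before the start. The stretches of Tnfaip3 lie on the minus strand at chr10:19015517-19015544 and chr10:19015411-19015431, with matches that begin 125 and 12 bases before the start. Those of Nfkb2 lie on the plus strand at chr19:46304689-46304717 and chr19:46304717-46304736, where the matches begin 39 and 11 bases before the start, and that of Rel lies on the minus strand at chr11:23771042-23771070, 92 to 82 bases before the start. Capital runs of more than 10 bases are overlapping matches. Nfkb2 has 3 starts in the table, and the other 2 had 1 match each. The second start listed for Tnfaip3 had none. A match describes these letters and is not evidence of binding, and the absence of a match in Rela and Nfkbib says only that the letters are not in the window.

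The deposited counts added up to between 31119105 and 64431811 per library, and every member had at least 522 counts in every library (the lowest being Rel in NETs replicate 2). Epithelial markers chosen as a check of the cells (Epcam, Krt8, Krt18, Krt19, Cdh1, Cldn4 and Cldn7) were all expressed, with a summed level of 3794 to 4056 CPM in control medium and 4035 to 4266 CPM with NETs. Here CPM is the count of a gene scaled to its library's total with TMM factors. Of 14 neutrophil markers 6 were at 0 in all libraries (Csf3r, Elane, Camp, Ngp, Mmp8 and Retnlg). Their summed level was 1.76 to 2.28 CPM in control medium and 3.06 to 3.41 CPM with NETs, most of it S100a8. The macrophage marker Adgre1 was at 0 as well. The summed macrophage list was at 36.0 to 40.2 CPM in control medium and 88.3 to 97.4 CPM with NETs. Its rise came from Csf1r (22.4 to 25.1 CPM against 76.6 to 86.3 CPM). Cd68 stood at 10.3 to 14.4 CPM in control medium and 10.2 to 11.3 CPM with NETs. Mrc1 was lower with NETs (1.03 to 1.08 CPM against 0.349 to 0.465 CPM). The 8 fibroblast markers summed to 42.8 to 48.7 CPM in control medium and 59.3 to 68.0 CPM with NETs, largely Pdgfra and Col1a1, with Dcn, Lum and Thy1 at 0. The 6 lymphocyte markers summed to at most 0.0885 CPM. No label states that replicates came from separate cultures, so a p-value here measures the spread between libraries alone, and that spread may be technical.

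With NETs 3 of the 5 inhibitor and feedback genes were called higher and 1 lower, and 2 of the 5 subunit genes were called higher. The 2 sets were not tested against each other. Nfkbie rose 2.08-fold and Tnfaip3 rose 1.78-fold, Nfkbib and Nfkb2 rose by smaller amounts, and Nfkbia, the gene of the classical inhibitor IkB-alpha, was 1.42-fold lower. Of the 10 members 5 rose (Nfkbie, Tnfaip3, Nfkbib, Relb and Nfkb2), 1 fell (Nfkbia) and 4 did not pass the test (Rela, Rel, Nfkb1 and Nfkbiz), by the quasi-likelihood test of edgeR at a threshold of 0.05, with Benjamini-Hochberg adjustment over 13956 genes. Over all genes tested 38.9% were called (20.2% higher and 18.7% lower). The groups were free of overlap in CPM at 6 of the 10 members, against 49.0% of all genes tested. These shares are not far above those of all genes, so the numbers of called members say little by themselves, and what follows describes the size and direction of each. In bulk RNA of this kind fewer expressing cells and less RNA per cell cannot be told apart.

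**Figure D1:**
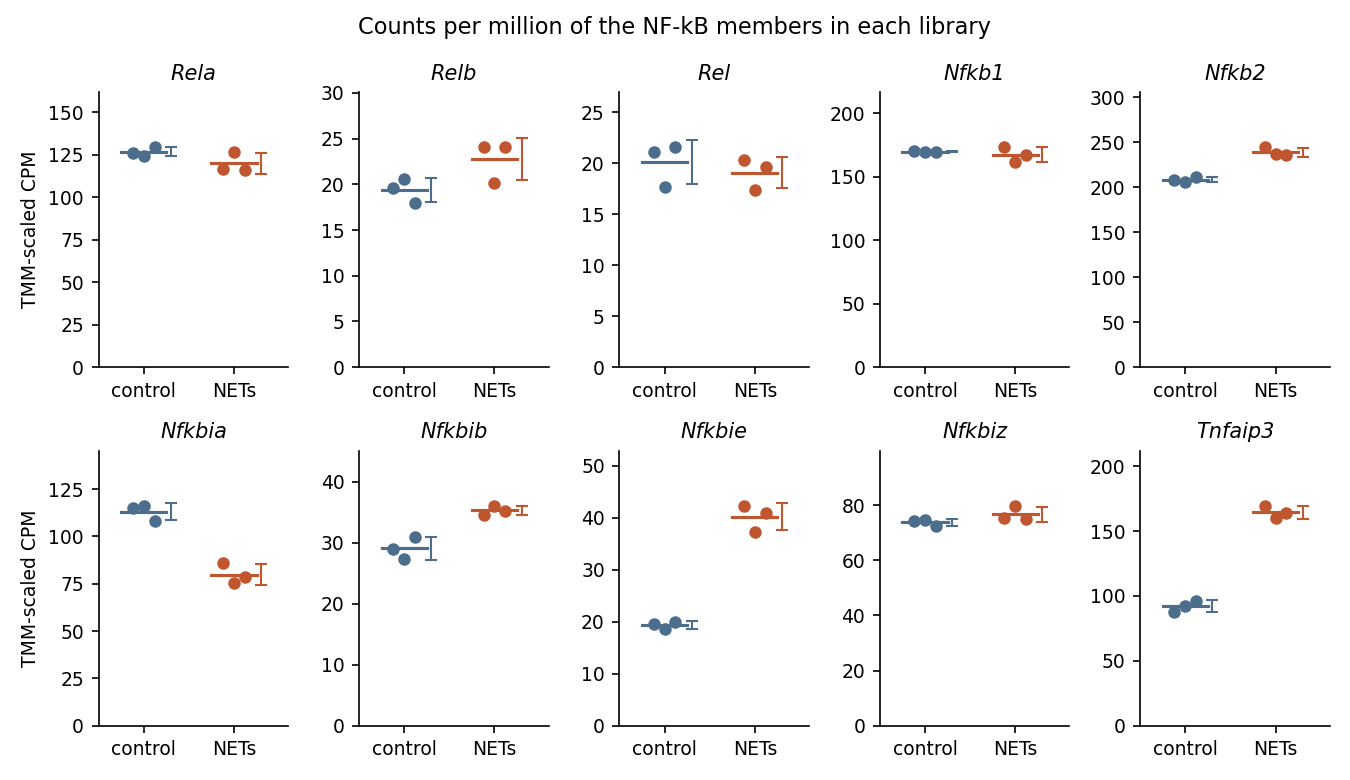
TMM-scaled CPM (vertical axes, from 0, a separate scale for each gene) of the 10 members in control and NETs libraries. Points are libraries, horizontal lines are means and bars to their right are SD (n = 3); the NETs libraries of Nfkbie (37.3 to 42.3 CPM) and Tnfaip3 (159.9 to 169.7 CPM) lie far above the control libraries, and those of Nfkbia (75.2 to 85.8 CPM) lie below them.

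Rela encodes RELA (p65), the main activating subunit of the canonical pathway. Its level was 126, 124 and 129 CPM in control replicates 1 to 3 and 117, 127 and 116 CPM in NETs replicates 1 to 3. The groups overlapped, because NETs replicate 2 lay between the control libraries. The difference was -0.08 on the log2 scale (SE 0.05, adjusted p = 0.226 in edgeR), with a 95% interval from -0.19 to 0.03. With library size alone as the scaling, which lowers the median of all genes by 0.068 (log2), Rela passed as lower (log2 fold change -0.15, adjusted p = 0.0192).

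Nfkb1 encodes p105, the precursor of p50, which pairs with RELA. It stood at 170.3, 169 and 169.6 CPM in control medium and at 173, 161 and 167 CPM with NETs, so that the control values lay inside the range of the NETs values. The log2 difference was -0.02 (SE 0.05, adjusted p = 0.788 in edgeR) with a 95% interval from -0.12 to 0.08. Rel encodes c-REL, an activating subunit best known from lymphocytes. It had 21.1, 17.6 and 21.6 CPM in control medium and 20.3, 17.3 and 19.6 CPM with NETs. The groups overlapped, and the log2 difference of -0.07 (SE 0.09, adjusted p = 0.546 in edgeR) had a wider interval, from -0.26 to 0.11.

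The subunit genes of the non-canonical pathway both passed the test, by small amounts. Nfkb2, the gene of p100, the precursor of p52, rose from 208, 206 and 212 CPM in control medium to 245, 237 and 236 CPM with NETs. Every NETs library lay above every control library, and the rise was 1.15-fold (log2 fold change 0.20, SE 0.05, adjusted p = 0.00222 in edgeR). Relb, the gene of the subunit that pairs with p52, had 19.6, 20.6 and 18.0 CPM in control medium and 24.1, 20.1 and 24.03 CPM with NETs. The groups overlapped through NETs replicate 2, which lay below control replicate 2. Relb passed the test at 1.18-fold (log2 fold change 0.24, SE 0.08, adjusted p = 0.0329 in edgeR), and the call was lost without control replicate 1 (adjusted p = 0.0786), control replicate 3 (0.108), NETs replicate 1 (0.114) or NETs replicate 3 (0.165), with upper-quartile scaling (0.0543) and with library size alone (0.144). The count of subunit genes called higher is then 1 and not 2. Exons of Nfkb2 overlap those of the uncharacterised gene 4833438C02Rik on the other strand. That gene was measured at 6.39 ± 0.194 CPM without NETs and 5.73 ± 0.920 CPM with them (mean ± SD, n = 3, adjusted p = 0.334 in edgeR).

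Among the inhibitors, the typical IkB genes went in different directions. Nfkbia, whose product IkB-alpha is degraded and resynthesised within a signalling cycle, fell from 115, 116 and 108 CPM in control medium to 85.8, 75.2 and 78.3 CPM with NETs. All NETs libraries lay below all control libraries. It fell by 0.50 on the log2 scale (SE 0.06, adjusted p = 2.00e-06 in edgeR), the only member called lower with TMM scaling. Nfkbie, the gene of IkB-epsilon, which also retains subunit pairs in the cytoplasm and acts with a delay after stimulation, rose from 19.5, 18.6 and 20.01 CPM to 42.3, 37.3 and 40.9 CPM. The lowest NETs library was above every control library by a wide margin, and the log2 fold change was 1.05 (SE 0.07, adjusted p = 1.77e-09 in edgeR). Nfkbib, the gene of IkB-beta, a slower-turning inhibitor, went from 28.9, 27.3 and 31.01 CPM to 34.6, 36.1 and 35.3 CPM. Its groups did not overlap either, and it rose 1.21-fold (log2 fold change 0.28, SE 0.06, adjusted p = 0.00214 in edgeR). Exons of Nfkbib overlap those of Sirt2 and Ccer2 on the other strand, and it is not given whether the counting used the strand. Sirt2 stood at 50.1 ± 2.94 CPM without NETs and 51.4 ± 2.51 CPM with them (adjusted p = 0.672 in edgeR), and Ccer2 had 6 counts over all libraries.

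Nfkbiz encodes IkB-zeta, an atypical family member that works in the nucleus as a co-regulator of a subset of NF-kB targets and is usually induced by interleukin and Toll-like receptor signals. Its level was 74.1, 74.6 and 72.4 CPM in control medium and 75.4, 79.8 and 74.9 CPM with NETs. The groups just failed to overlap, yet the difference of 0.06 on the log2 scale (SE 0.05, 95% interval -0.05 to 0.16, adjusted p = 0.419 in edgeR) did not pass the test, and with library size alone its sign turned (-0.01).

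Tnfaip3 had the smallest p-value of the members. The A20 gene went from 87.8, 92.5 and 96.4 CPM in control medium to 169.7, 159.9 and 164 CPM with NETs. No library came near the other group, and the log2 fold change was 0.83 (SE 0.05, adjusted p = 8.62e-10 in edgeR). Under the 15 alternatives of scaling, filter, test, counting and left-out library, its log2 fold change ran from 0.77 to 0.87, that of Nfkbie from 0.99 to 1.10 and that of Nfkbia from -0.57 to -0.46, and all 3 genes passed the test each time. The 3 genes outside the members whose log2 CPM followed that of Tnfaip3 most closely over the 6 libraries were Serpinb5 (r = 0.9992), Plekhf2 (r = 0.9992) and Rin2 (r = 0.9991), among 10071 genes that averaged 5 CPM or more. With 6 libraries in 2 groups such a correlation follows mainly the difference between the groups, and 265 genes had r above 0.99.

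Levels of different genes were compared per length, as TPM (counts divided by the exon length of the gene, then scaled to the same total in each library). In control medium Nfkbia was the most abundant member at 276 ± 14.1 TPM (mean ± SD, n = 3 here and below), followed by Nfkb2 at 179 ± 2.15 TPM and Rela at 162 ± 2.71 TPM. A middle group held Nfkbiz (57.7 ± 1.61 TPM), Nfkb1 (55.2 ± 0.938 TPM), Nfkbib (52.6 ± 2.96 TPM) and Tnfaip3 (50.1 ± 1.59 TPM), whose neighbouring ranges overlapped. Nfkbie (24.98 ± 0.877 TPM), Relb (19.6 ± 1.51 TPM) and Rel (10.6 ± 1.12 TPM) were lowest, each apart from the next. With NETs the top of the order changed. Nfkb2 at 197 ± 7.45 TPM and Nfkbia at 187 ± 16.4 TPM had overlapping ranges, and Rela followed at 147 ± 4.82 TPM. Tnfaip3, at 86.0 ± 4.21 TPM, now stood next and apart from Nfkbib (61.6 ± 0.136 TPM), Nfkbiz (57.8 ± 1.17 TPM) and Nfkb1 (52.5 ± 2.88 TPM). Nfkbie reached 49.9 ± 4.20 TPM, a range that overlapped that of Nfkb1, while Relb (22.1 ± 2.61 TPM) and Rel (9.66 ± 0.954 TPM) remained last. Added together, the 5 subunit genes had 426 ± 5.89 TPM in control medium and 429 ± 10.8 TPM with NETs, and the 3 typical IkB genes 354 ± 11.9 TPM and 299 ± 20.2 TPM. TPM values carry no TMM scaling, so a change in them between groups also holds a shift common to all genes. That shift need not equal the one given above for library size.

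The balance among the typical IkB genes does not depend on scaling, because it is taken within a library. Nfkbia made up 78.4%, 79.4% and 76.3% of the summed TPM of Nfkbia, Nfkbib and Nfkbie in control replicates 1 to 3 and 64.1%, 61.8% and 62.1% in NETs replicates 1 to 3. Its share was lower in every NETs library than in any control library. The share of Nfkbie went from 7.03%, 6.72% and 7.47% to 16.7%, 16.2% and 17.1%, and that of Nfkbib from 14.6%, 13.9% and 16.3% to 19.2%, 22.0% and 20.8%. These shares were computed after the values of the genes had been seen. In exact two-sided permutation tests each gave p = 0.1, the smallest that 3 against 3 libraries allow.

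**Figure D2:**
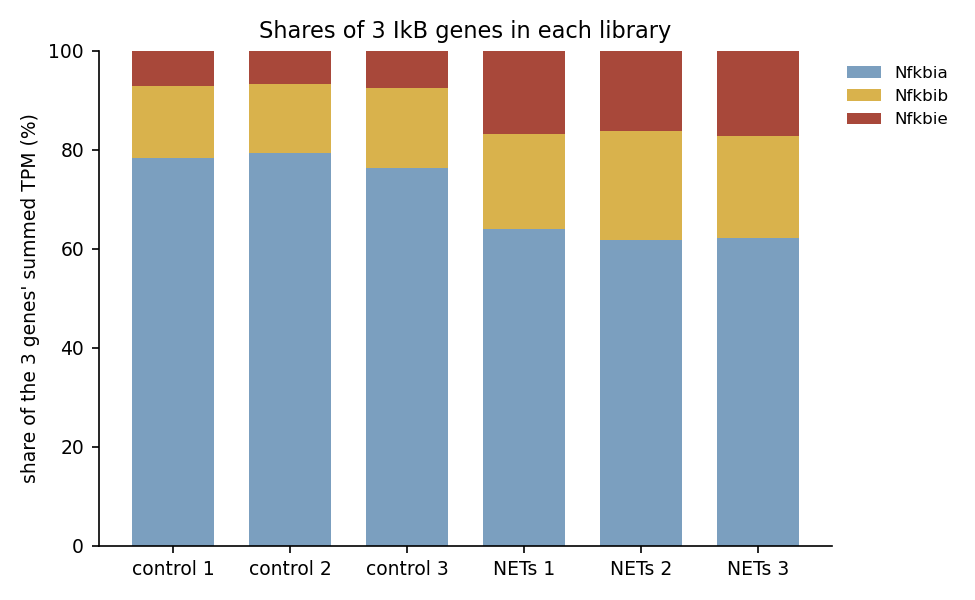
Share (%, vertical axis) of Nfkbia, Nfkbib and Nfkbie in the summed TPM of the 3 genes, in each of the 6 libraries. The Nfkbia part covers 76.3% to 79.4% of the control bars and 61.8% to 64.1% of the NETs bars, and the Nfkbie part is larger in each NETs bar.

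Ratios between 2 members within a library are likewise free of any scaling factor. The log2 ratio of Nfkbia to Rela, inhibitor against subunit, was 0.77 ± 0.09 in control medium and 0.34 ± 0.16 with NETs. That of Tnfaip3 to Rela went from -1.69 ± 0.06 to -0.78 ± 0.11. The groups did not overlap in either ratio. Nfkb2 against Nfkb1, the non-canonical against the canonical precursor gene, went from 1.69 ± 0.02 to 1.91 ± 0.03 without overlap, whereas the groups of Relb against Rela (-3.05 ± 0.13 and -2.74 ± 0.22) overlapped, and Rel against Rela (-3.94 ± 0.13 and -3.94 ± 0.19) overlapped as well. Against Nfkbia, the log2 ratio of Nfkbie rose by 1.56, that of Nfkbib by 0.79 and that of Nfkbiz by 0.56, each without overlap. Of the 8 ratios, the 6 without overlap had p = 0.1 in the exact two-sided permutation test, which is the smallest possible p, and 0.133 after Benjamini-Hochberg adjustment over the 8. Relb against Rela had an exact p of 0.2 and Rel against Rela of 0.8. No ratio could therefore pass a threshold of 0.05 in this design.

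**Figure D3:**
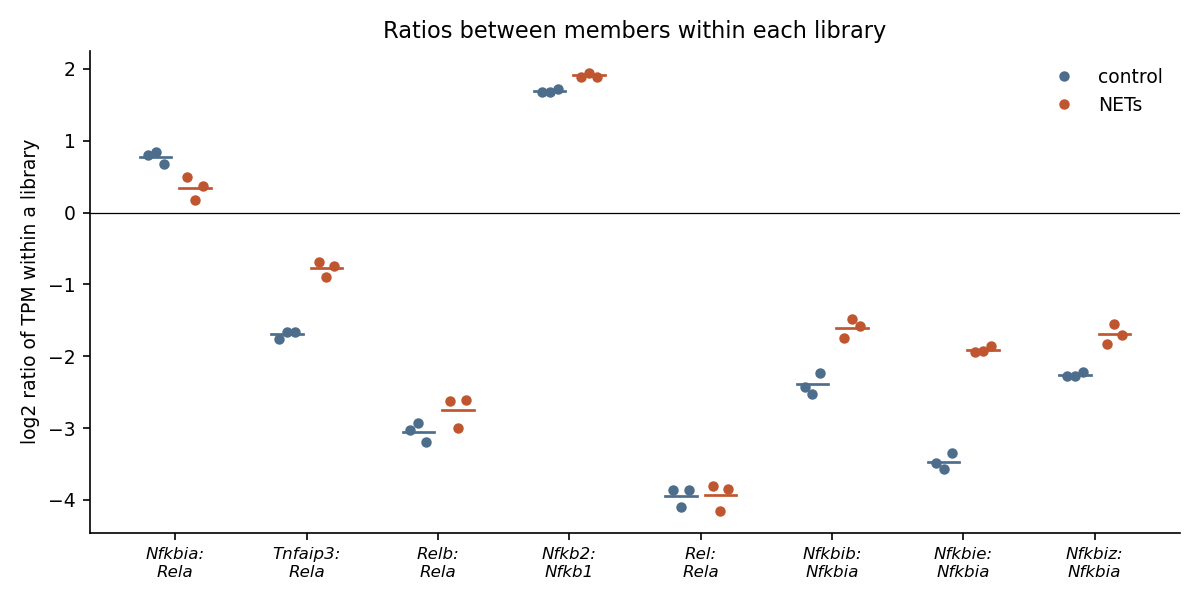
Log2 ratio of TPM between pairs of members (vertical axis) within each control and NETs library, with points for libraries and lines for group means (n = 3). The groups are apart in 6 of the 8 ratios, by 1.56 for Nfkbie against Nfkbia, and overlap for Relb against Rela and Rel against Rela.

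The other genes of the pathway were counted by role from 6 lists, of which 74 of 79 genes passed the filter, 22 of them called higher and 22 lower (59.5% called, against 38.9% of all genes tested). The lists were chosen with earlier results of these data known. The shares called and the directions given below are therefore descriptions, and no list was tested as a set. The rest of the IkB family held Bcl3, a nuclear co-activator that binds p50 and p52, which rose 1.29-fold to 13.2 CPM (adjusted p = 0.00394 in edgeR), and Nfkbid, which went from 3.43 to 2.86 CPM and did not pass (adjusted p = 0.215 in edgeR). The list nearest to Tnfaip3, of A20 partners, deubiquitinases and other brakes, had 7 of 13 tested genes called higher and 2 lower (69.2% called), with a median log2 fold change of 0.19 against -0.004 over all genes tested. Tnip1, whose product binds A20 and helps it to restrain IKK, rose 1.48-fold from 185 ± 8.04 to 273 CPM (adjusted p = 3.28e-07). Rnf11 and Tax1bp1, which work in a complex with A20, rose 1.43-fold and 1.28-fold, and Cyld, the gene of another deubiquitinase of the pathway, rose 1.28-fold (adjusted p = 1.27e-07, 6.12e-05 and 1.57e-05). Itch, the ligase of the same A20 complex, also rose (1.14-fold, adjusted p = 0.00336), as did Tnip2 and Zc3h12a. Otud7b and Pdlim2 fell, and without control replicate 2, control replicate 3 or NETs replicate 3 only 1 gene of the list was called lower. Tnip3 was not tested, at 0.0726 to 0.399 CPM.

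Of 13 kinase genes 4 rose and 2 fell (median log2 fold change 0.09), which makes 46.2% called against 38.9% of all genes tested, so the count itself is near the background. Map3k14, the gene of NIK, rose 1.51-fold from 21.6 ± 1.05 to 32.6 CPM (adjusted p = 7.54e-06). The IKK-related kinase genes Ikbke and Tbk1, better known for activating interferon regulatory factors, fell by 0.41 and 0.25 in log2 units (adjusted p = 1.34e-05 and 0.00132). Within the core IKK complex, the regulatory subunit gene Ikbkg rose 1.13-fold (adjusted p = 0.0192), while the catalytic subunit genes Chuk (109.9 and 108 CPM) and Ikbkb (89.4 and 95.3 CPM) did not pass (adjusted p = 0.779 and 0.164). The number of kinase genes called higher varied: 2 were called higher without control replicate 1 or NETs replicate 1, 1 without control replicate 2 or NETs replicate 3, and 1 with library size alone.

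Of 17 adaptor and ubiquitin ligase genes 2 rose and 4 fell (median log2 fold change 0.03), which makes 35.3% called, near the 38.9% of all genes tested. Card10, a scaffold that links receptors to IKK in epithelial cells, rose 1.62-fold from 237 ± 9.004 to 384 CPM (adjusted p = 6.54e-09). Myd88 and Ticam1, the adaptors of Toll-like receptors, fell by 0.33 and 0.29 in log2 units, and Traf3ip2, the adaptor of the interleukin-17 receptor, fell by 0.24 (adjusted p = 0.000760, 0.0169 and 0.00386). Without control replicate 2, control replicate 3 or NETs replicate 3 only 1 gene of this list was called higher, and without NETs replicate 3 only 2 were called lower.

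Of 11 receptor genes tested 4 rose and 5 fell (81.8% called, against 38.9% of all genes tested), with a median log2 fold change of -0.10. With 1 library left out, 3 to 4 receptor genes were called higher and 4 to 5 lower. The Toll-like receptor genes Tlr4 and Tlr3 fell by 0.80 and 0.52 in log2 units, and Tlr2 rose 1.85-fold (adjusted p = 6.62e-09, 2.62e-07 and 2.99e-08). The genes of the TNF receptors went apart, with Tnfrsf1b higher at 102 CPM against 66.4 ± 5.59 CPM (adjusted p = 4.82e-07) while Tnfrsf1a fell by 0.37 in log2 units (adjusted p = 1.55e-05). Cd40, a receptor that feeds both pathways and was singled out after its values were seen, had 0, 0 and 2 counts in control replicates 1 to 3 and 49, 33 and 52 counts in NETs replicates 1 to 3. It passed the filter on low counts only through the NETs libraries, where its level was about 1.07 CPM. No p-value is given for that reason, and no fold change because the control libraries were at or next to 0. The 4 receptor genes counted as higher and the 81.8% called include it.

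More of the textbook targets of NF-kB fell than rose. Of 18 tested 9 fell and 4 rose (72.2% called, against 38.9% of all genes tested), and the median log2 fold change was -0.33. With 1 library left out, 7 to 8 target genes were called lower and 3 to 4 higher. The chemokine genes Cxcl1, Ccl20 and Cxcl5 fell by 2.06, 1.78 and 1.61 in log2 units (adjusted p = 4.74e-10, 4.22e-12 and 1.26e-11), and the transcription factor gene Irf1 rose 1.47-fold (adjusted p = 4.44e-08). The other genes called higher were Ptgs2 (2.28-fold, adjusted p = 2.07e-05), the gene of an inducible cyclooxygenase, Nos2 (1.49-fold, adjusted p = 2.45e-06), the gene of inducible nitric oxide synthase, and the adhesion molecule gene Icam1 (1.61-fold, adjusted p = 0.0327). The other genes called lower were Lcn2, Ccl5, Cxcl2, Csf2, Tnf and Vcam1. Sod2, the gene of mitochondrial superoxide dismutase, had 57.2 and 59.4 CPM (adjusted p = 0.465) and Ier3 312 and 269 CPM (adjusted p = 0.318), and neither passed. Il6 had at most 2 counts in any library. Each adjusted p of the pathway lists is from edgeR over all genes tested. Exons of Bcl3, Map3k14, Ikbkg, Ikbke, Myd88, Traf3ip2, Tax1bp1, Tlr3, Irf1, Icam1, Vcam1 and Csf2 overlap exons of another gene. Their counts are therefore uncertain.

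**Figure D4:**
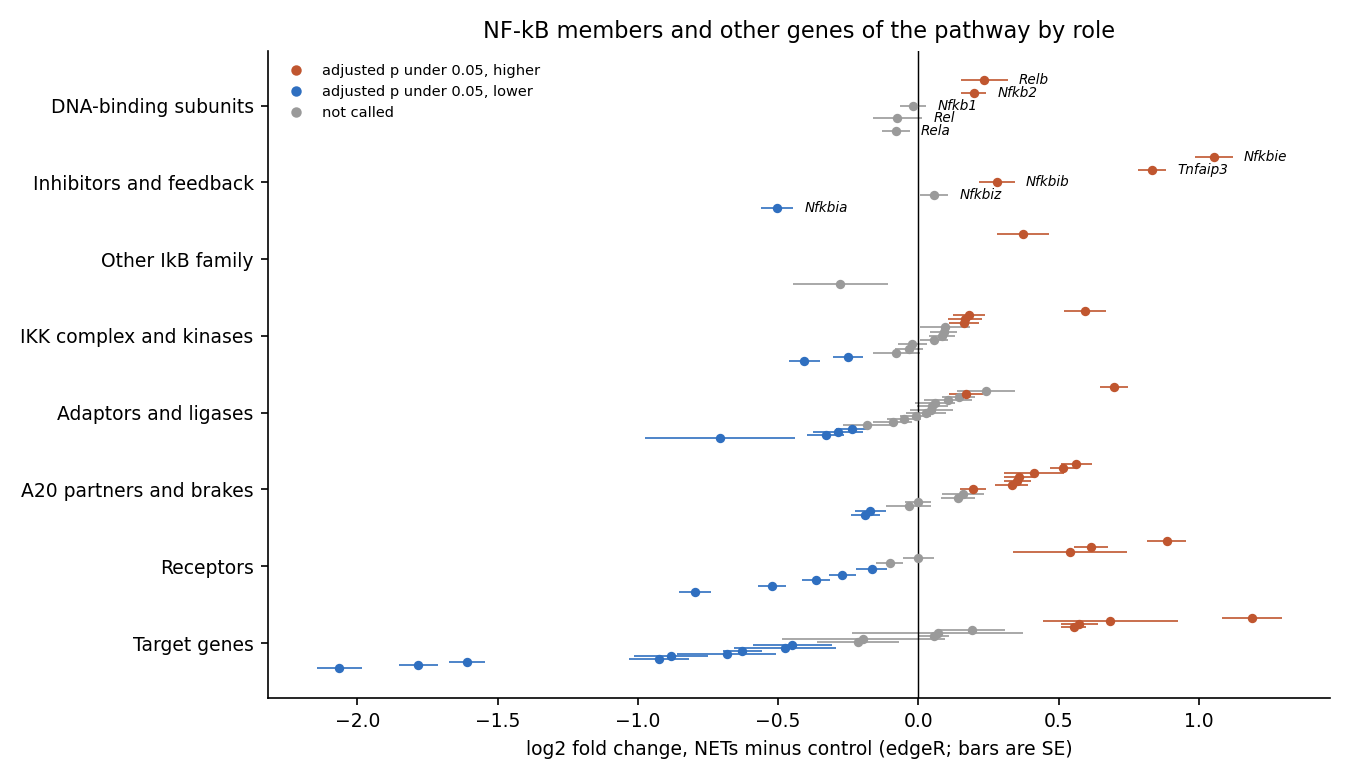
Log2 fold change, NETs minus control, with SE (horizontal axis), of the members and of the other tested pathway genes by role, 1 point per gene, with Cd40 left out because its control libraries were at or next to 0. Orange and blue points passed the test as higher and lower; Nfkbie (1.05) and Tnfaip3 (0.83) lie to the right and Nfkbia (-0.50) to the left among the members, and the target genes spread from -2.06 to 1.19.

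In the coordinates of the deposited table, counted from 1 and running over exons and introns, Rela lies at chr19:5687511-5698158 and Nfkb2 at chr19:46292759-46299314 on the plus strand. Relb lies at chr7:19340142-19363363, Rel at chr11:23686847-23720970 and Nfkb1 at chr3:135290416-135397308 on the minus strand. Nfkbia lies at chr12:55536195-55539432, Nfkbib at chr7:28457676-28466937, Nfkbiz at chr16:55631738-55659262 and Tnfaip3 at chr10:18876658-18891405 on the minus strand, and Nfkbie at chr17:45866629-45874095 on the plus strand. These spans overlap the GRCm38 position of the same gene for 0 of the 10 members, although the submitters' processing notes name mm10, so the build of the table's coordinates is not settled and they cannot be set beside the promoter coordinates.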

How the data were processed

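RNA sequencing of 6 libraries (3 control, 3 NETs) was grouped by the sample titles. The labels' protocols name a spin-column RNA kit and a stranded mRNA library kit. The authors deposited 1 table of whole-number counts per gene symbol. STAR 2.7.10a, featureCounts (Subread 2.0.3) and mm10 are named in the submitters' processing notes; the strand setting, the treatment of multi-mapping reads and the annotation are not given there. Even numbers made up 74.8% to 78.4% of the counts from 1 to 20, so the mates of a pair appear to have been counted separately. The counts were used as deposited. Gene length (exon bases) is the deposited column and was used for TPM only.

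Libraries were scaled by TMM, and filterByExpr (minimum count 10) left 13956 genes. Groups were compared with edgeR 4.0.16 in R 4.3.3 (robust quasi-likelihood fit, group alone), with Benjamini-Hochberg adjustment over all tested genes. SE is the absolute log2 fold change divided by the root of its F statistic. The common biological coefficient of variation was 0.062. The test was tried on simulated counts. Between libraries of a group, chi-square over its degrees of freedom was 9.59 to 25.1, above sampling noise, and each was counted once. Members and lists were chosen with earlier results of these data known. Named were all members, the 4 called genes with the smallest p of each other list, and the 3 genes most like the member with the smallest p; the others were named after their values were seen. Alternatives used DESeq2 1.42.0 and limma 3.58.1 (voom), other scalings and filters, halved counts, a replicate block and each library left out.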

Additional observations from a re-analysis of the deposited data

How the results depend on the processing

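Of the 150 recomputed fold changes of the members (10 genes, 15 alternatives), the direction turned for Nfkb1 without NETs replicate 2 (0.0063; with a library left out its lowest value was -0.0467, without NETs replicate 1, and over all 15 alternatives -0.0870, with library size alone) and for Nfkbiz with library size alone (-0.0127). Calls changed for Relb alone among the called genes, in 6 alternatives, and for Rela with library size alone. With library size alone 2 members were called lower, 1 of them a subunit, and 1 subunit, 1 kinase gene and 1 adaptor gene higher. With upper-quartile factors 1 subunit and 1 adaptor gene, and with no low-count filter 1 kinase and 1 adaptor gene, were called higher. Leaving out 1 library gave 1 to 2 subunits, 1 to 4 kinase genes and 1 to 3 adaptor genes called higher, and 2 to 4 adaptor genes and 1 to 2 brakes called lower. It also gave 3 to 4 receptor genes and 3 to 4 target genes called higher, and 4 to 5 receptor genes and 7 to 8 target genes called lower. The log2 ratio of Rel to Rela differed by 0.01 between groups and by -0.0715 to 0.114 with a library left out. Over all genes, 35.9% of the called genes were higher with library size alone against 52.0% here. The replicate block called 2969 genes higher and 2713 lower, against 2825 and 2605, and changed no call of a member. Same-numbered libraries deviated together with r = 0.12, -0.06 and 0.06, and no label ties a number to a shared day, so the numbers were not taken as pairs. Depth limits the genes near 0 counts most. Among the members, Rel and Relb had counts down to 522 and 605, both in NETs replicate 2. Their SE was 0.09 and 0.08, against 0.05 for Rela, Nfkb1, Nfkb2 and Tnfaip3. How far depth limits the members was not tested.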
